A study of Mus musculus with 6 samples.

Results

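The genes that encode the hormones of the pituitary were followed across 6 whole-brain arrays of neonatal mice. They are 7 of the 18193 genes with a probe set of their own on the array, and 11 of the 34945 probe sets that name 1 gene. The rule took every such probe set of Gh, Prl, Pomc, Tshb, Cga, Lhb and Fshb. The genes were chosen by earlier results of these same arrays, in which pituitary genes differed between arrays. Their levels and differences are therefore a description, and the p-values printed beside them support nothing further.

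The anterior pituitary secretes growth hormone, prolactin, corticotropin and the glycoprotein hormones into the blood under the control of peptides and dopamine from the hypothalamus. Thyrotropin, luteinizing hormone and follicle-stimulating hormone share 1 alpha subunit and differ in their beta subunits. Sex steroids act on both levels of this axis, and testosterone given to newborn female rodents is a classical means of altering its later function. Of these genes, Pomc is also transcribed within the brain, in neurons of the arcuate nucleus of the hypothalamus.

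The mice were of the C57BL/6 strain (C57BL/6J in the treatment text), with no other allele given. On postnatal day 2 the treated pups were injected intraperitoneally with 1 mg of testosterone propionate, an esterified testosterone called TP below, dissolved in 20 µL of sesame oil. Vehicle pups were given 20 µL of that oil alone, and the brains were collected on postnatal day 6. TP-treated males are represented by 1 array, vehicle males by 1, TP-treated females by 2 and vehicle females by 2. Each array held RNA pooled from 6 mice. Female array 2 of each treatment is described as a replica, with no statement that it came from other mice. A p-value therefore reflects array-to-array spread that could be technical. The labels give whole brain as the tissue and do not mention the pituitary.

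Array medians lay between 5.69 and 5.74 log2 units. All 10 brain markers were measured, with mean levels of 10.47 on the male TP array and 10.49 on the male vehicle array. The male TP array stood apart in a sex-linked gene. Xist, a noncoding RNA made from the inactive X chromosome of females, read 10.45 on the male TP array, against 5.29 on the male vehicle array, and between 12.61 and 12.83 on the 4 female arrays. All 3 Xist probe sets showed this order. The library labelled male TP thus went against its label for Xist. Whether its pool held RNA of a female was not tested, and each value given for TP males is that of the library so labelled. Of the Y chromosome, the translation factor gene Eif2s3y and the histone demethylase gene Kdm5d read 9.12 and 6.80 on the male TP array, against 9.16 and 7.17 on the male vehicle array. Uty, also a histone demethylase gene of the Y chromosome, went the other way at 5.54 on the male TP array and 4.84 on the male vehicle array, and a further Eif2s3y probe set was 0.74 higher on the male TP array than on any other. On the 4 female arrays 3 Y-linked genes read between 2.44 and 3.09, which gives a reading of probe sets without their transcript. No detection call was used here.

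Upstream sequences were found for 6 of the 7 genes in RefSeq's table of mouse assembly GRCm38.p6 (Gh had no entry). The 80 bases before the start of each are shown because they carry the feature that the 6 have in common, a TATA box. Each lies 5′ to 3′ on the gene's strand, with the letters TATAAA in capitals where found on either strand and, in Prl, the letters TATNCAT, a core of the binding site of the pituitary factor POU1F1, also in capitals. In Prl the capitals before gcc join overlapping matches of TATAAA on both strands. For Tshb and Lhb the start used lies inside the span given below for the gene, not at its outer end.
Prl, chr13:27057490-27057569, plus strand: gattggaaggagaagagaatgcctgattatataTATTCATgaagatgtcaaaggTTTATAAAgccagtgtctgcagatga
Pomc, chr12:3954865-3954944, plus strand: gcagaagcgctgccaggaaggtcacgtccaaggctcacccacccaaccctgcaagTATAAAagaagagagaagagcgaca
Tshb, chr3:102782715-102782794, minus strand: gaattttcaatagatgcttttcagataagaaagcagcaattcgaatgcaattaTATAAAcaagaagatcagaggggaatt
Cga, chr4:34893699-34893778, plus strand: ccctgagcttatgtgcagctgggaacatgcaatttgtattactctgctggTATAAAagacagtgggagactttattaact
Lhb, chr7:45420866-45420945, plus strand: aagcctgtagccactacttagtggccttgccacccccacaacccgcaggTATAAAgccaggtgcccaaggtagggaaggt
Fshb, chr2:107059652-107059731, minus strand: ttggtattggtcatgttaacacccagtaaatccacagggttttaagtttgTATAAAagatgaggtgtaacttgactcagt

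On the gene's strand TATAAA began 20 to 35 bases before the start in 6 of these 6 windows, against 1.84% of 32851 windows in the whole table. That interval was set after the matches were seen. Over 250 bases and both strands, TATAAA was present in 6 of 6 windows and in 12.4% of all windows. The POU1F1 core was present in 1 of 6, with 2 matches in Prl, and in 7.92% of all windows. A match is a description of the letters and not of a bound site.

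Gh, the growth hormone of somatotrophs, was far higher on the male TP array than on any other array, by all of its 4 probe sets. The gene lies on chromosome 11 (106300261 to 106303703, GRCm38.p6). Probe set 1437522_x_at read 8.66 log2 units on the male TP array and 3.18 on the male vehicle array. Its female TP arrays read 3.23 and 3.27, and its female vehicle arrays 3.14 and 3.003. Probe set 1460613_x_at gave 8.39 in TP males and 3.37 in vehicle males, and in females 3.26 and 3.31 with TP and 3.08 and 3.25 with vehicle. In both probe sets 1 array was high and the other 5 read between 3.003 and 3.37, at or a little above the readings of Y-linked genes in females.

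Probe set 1456595_x_at read 8.38 in TP males, 3.23 in vehicle males, 3.24 and 3.10 in TP females and 3.15 and 3.25 in vehicle females. Probe set 1460310_a_at, which has the highest mean and represents the gene in the fits, read 8.55 in TP males and 5.71 in vehicle males. It read 5.42 and 5.60 in TP females and 5.75 and 5.37 in vehicle females. In each of the 4 probe sets the male TP array lay above the other 5, which lay close together. On this array design the ending _x_at marks a probe set some of whose probes may match other sequences, and _a_at one that matches several transcripts of 1 gene.

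The male TP minus male vehicle difference for Gh was 2.84 log2 units by 1460310_a_at, or 7.18-fold. That fold depends on its male vehicle reading of 5.71, where the 3 _x_at probe sets read 3.18, 3.23 and 3.37. The 3 _x_at probe sets gave 5.48, 5.14 and 5.02 log2 units. Their male vehicle readings lie so near the background reading that no fold is given for them, and these differences depend on that floor. With 1 array per group in males these differences have no replicate check. In females the difference was between -0.05 and 0.18 over the 4 probe sets. The female groups overlapped for 1460310_a_at and 1456595_x_at and lay apart, TP higher, for the other 2, with limma adjusted p of 0.663 and 0.777 over all single-gene probe sets. Over the 11 hormone probe sets 3 had female groups that did not overlap, against 38.4% of all single-gene probe sets.

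Pomc, the precursor of corticotropin and of the melanocyte-stimulating hormones, was the other hormone gene with a clearly separate male TP array. It lies on chromosome 12 (3954945 to 3960643). Probe set 1433800_a_at read 7.86 in TP males and 6.46 in vehicle males. The female readings were 6.45 and 6.53 with TP and 6.57 and 6.45 with vehicle, so the 5 other arrays spanned 0.12 log2 units.

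The second Pomc probe set, 1455858_x_at, read 7.39 in TP males and 5.40 in vehicle males, with 5.42 and 5.73 in TP females and 5.29 and 5.65 in vehicle females. The male difference was 1.40 log2 units (2.63-fold) by the first and 1.98 (3.95-fold) by the second. Both female differences were small, at -0.02 and 0.10, and the female groups overlapped in each probe set. In whole-brain RNA, more cells of a type and more RNA per cell cannot be told apart. The labels do not say whether pituitary tissue was taken with the brains. With 1 male TP array, the amount of such tissue in its pool and an effect of TP cannot be told apart either.

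**Figure D1:**
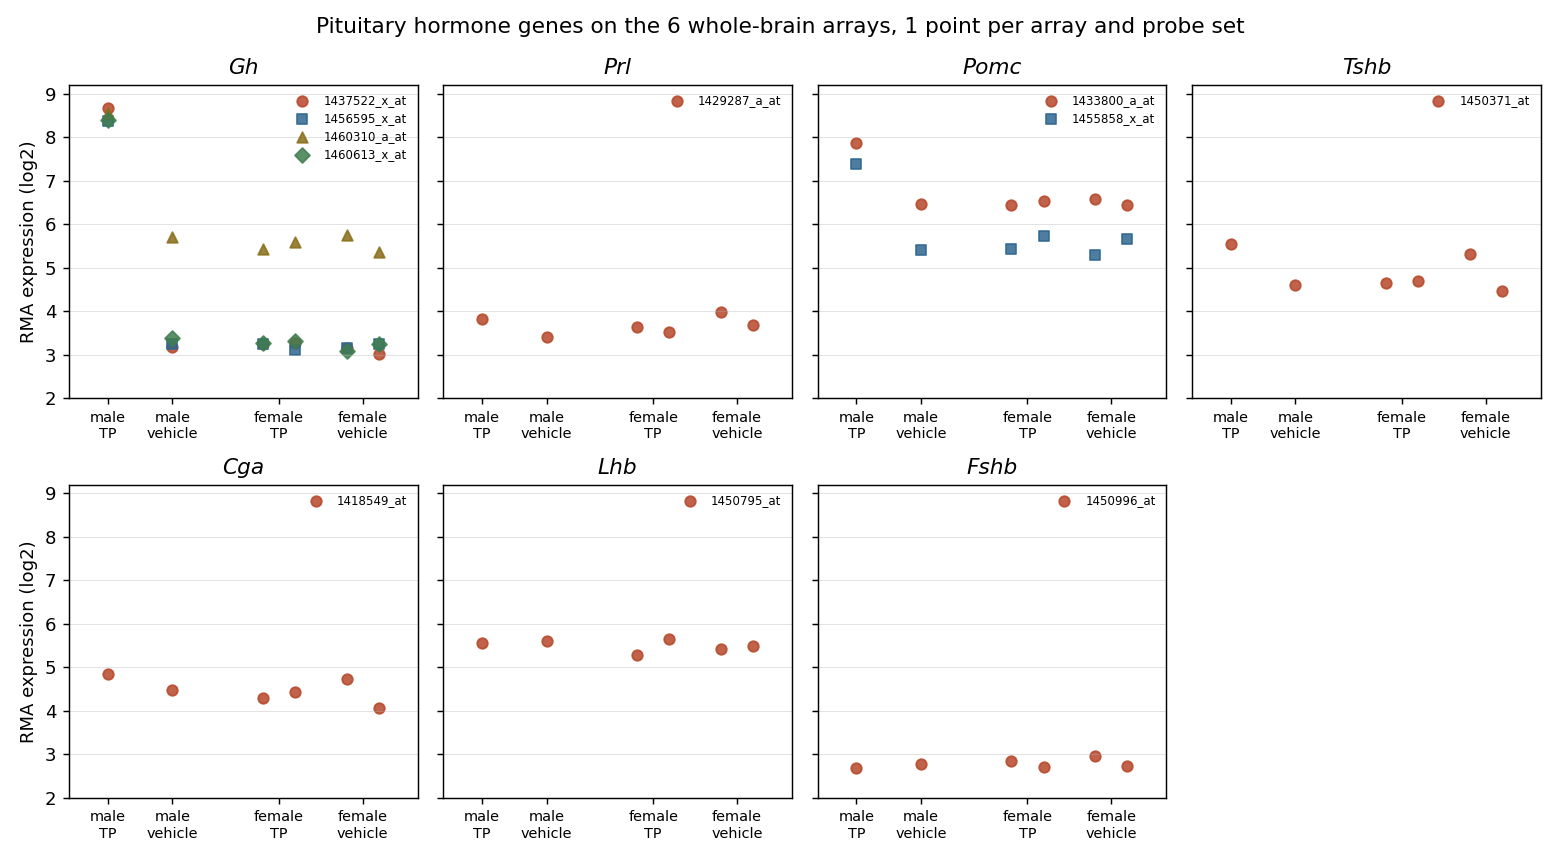
Expression of the 7 pituitary hormone genes in log2 units (vertical axis) on each array (horizontal axis, male TP, male vehicle, female TP, female vehicle). Each point is 1 array and each colour and shape 1 probe set. All 4 Gh and both Pomc probe sets are highest on the male TP array, while Prl, Lhb and Fshb are not.

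Prl, encoding prolactin of lactotrophs, gave no such reading. It lies on chromosome 13 (27057570 to 27065204) and has 1 probe set, which read 3.81 in TP males and 3.41 in vehicle males. It read 3.63 and 3.51 in TP females against 3.99 and 3.69 in vehicle females. The male TP reading fell among the female vehicle ones, and the female groups did not overlap, with TP lower. The female difference was -0.27 (SE 0.11, limma adjusted p = 0.672), so it did not pass, and it was -0.12 without female vehicle array 1 and -0.42 without female vehicle array 2. In males the difference was 0.40.

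Tshb, the beta subunit of thyrotropin, read 5.54 in TP males and 4.61 in vehicle males (chromosome 3, 102777398 to 102789082). Its female TP arrays read 4.65 and 4.69, against 5.30 and 4.46 in the female vehicle arrays. The male TP array was the highest of the 6, but only 0.24 log2 units above a female vehicle array. The difference was 0.93 in males and -0.21 in females.

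Cga, the alpha subunit that thyrotropin and both gonadotropins share, had the same pair of highest arrays as Tshb, male TP and female vehicle array 1. It lies on chromosome 4 (34893779 to 34907374). It read 4.84 in TP males and 4.49 in vehicle males, 4.29 and 4.43 in TP females and 4.72 and 4.06 in vehicle females. Its male difference of 0.35 was smaller than the 0.66 spanned by the 5 other arrays.

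The gonadotropin beta subunits did not stand out on the male TP array. Lhb, of luteinizing hormone (chromosome 7, 45417608 to 45421855), read 5.56 in TP males and 5.60 in vehicle males, with 5.28 and 5.64 in TP females and 5.41 and 5.48 in vehicle females. Fshb, of follicle-stimulating hormone (chromosome 2, 107055986 to 107059651), read 2.68 in TP males and 2.77 in vehicle males, with 2.84 and 2.71 in TP females and 2.95 and 2.74 in vehicle females. All 6 Fshb readings lie in the range of Y-linked genes in females. Apart from Pomc, the genes are dim, with means below 6.19 log2 units, the 40th percentile of all genes, so their small differences are uncertain in size.

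Set against the whole table, Gh and Pomc were extreme on this array. A male difference of 1 log2 unit or more upwards was shown by 4 genes, or 0.022% of 18193, and 2 of them were hormone genes. By size of the male difference Gh ranked 2, Pomc 3 and Tshb 5, after Xist at rank 1 and around Psg28 at rank 4 with 1.05. Prl ranked 196 and Cga 337. Lhb and Fshb ranked 9142 and 11745.

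The male TP array was above all 5 other arrays for 4 of the 7 genes (Gh, Pomc, Tshb and Cga), and for 11.7% of all genes. It was above them by 1 log2 unit or more for 2 genes, Gh at 2.80 and Pomc at 1.29, which is 0.011% of genes. The next gap was 0.71, for Uty. Over single probe sets the same held for 7 of 34945 (0.02%), and 6 of these were the Gh and Pomc probe sets, the other being a probe set of Orly at 1.43. Psg28, Uty and Orly are named here because of these values. Since the genes were chosen on such values, these ranks place them and test nothing.

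**Figure D2:**
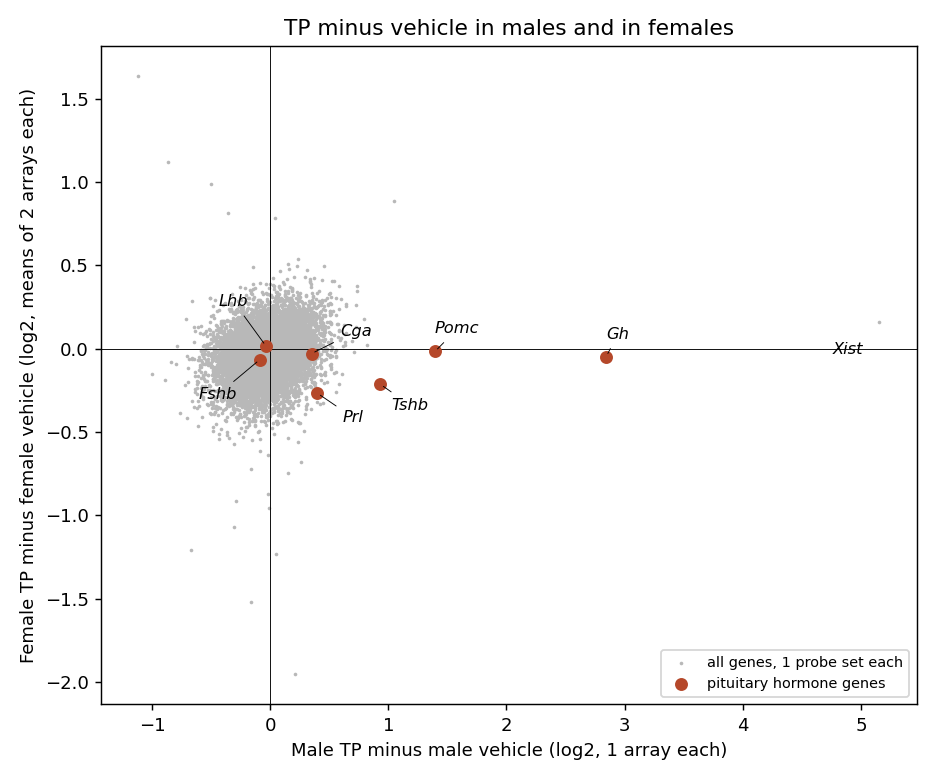
Difference between TP and vehicle in males (horizontal axis, log2, 1 array each) and in females (vertical axis, log2, means of 2 arrays each) for 18193 genes, 1 grey point per gene. Gh at 2.84 and Pomc at 1.40 lie far along the male axis and near 0 on the female axis, and Xist lies at 5.16 in males.

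In the female comparison, which asked what TP changed in the female brain, 0 of the 7 hormone genes passed limma's test. The share of all genes past its threshold, an adjusted p under 0.05, was 0.0275%. The adjusted p of the 7 genes lay between 0.672 and 0.984, and 0 of them had an unadjusted p under 0.05, against 1356 of all genes. Gh averaged 5.51 ± 0.12 in TP females and 5.56 ± 0.27 in vehicle females (SD, n = 2 each), a difference of -0.05 (SE 0.14). Pomc averaged 6.49 ± 0.06 in TP females and 6.51 ± 0.08 in vehicle females. For Tshb the means were 4.67 ± 0.03 with TP and 4.88 ± 0.59 with vehicle, and for Cga 4.36 ± 0.09 with TP and 4.39 ± 0.47 with vehicle. In both genes female vehicle array 1 read above female vehicle array 2. Without array 1 the female differences were 0.20 for Tshb and 0.30 for Cga, and without array 2 they were -0.63 and -0.36, so their direction depends on 1 library, and none of the 4 values passed. Lhb differed by 0.02 (SE 0.13) and Fshb by -0.07 (SE 0.10). The groups did not overlap for 1 of the 7 genes, Prl, and for 38.1% of all genes.

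Over both sexes, adjusting for sex, 0 of the 7 genes and 0% of all genes passed limma's threshold, with 0 of the 7 and 2229 of all genes at an unadjusted p under 0.05. Gh differed by 0.92 (SE 0.52, limma adjusted p = 0.498) and Pomc by 0.45 (SE 0.25, adjusted p = 0.495). The 3 TP arrays did not separate from the 3 vehicle arrays for any of the 7 genes, against 14.9% of all genes. Without the male TP array the differences were -0.05 for Gh and -0.02 for Pomc, and they were the same without the male vehicle array. With either male array left out, the adjustment for sex takes up the other. The fit then gives the female difference, so it says nothing about the male TP array.

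Between the sexes, adjusting for treatment, 0 of the 7 genes passed, against 0.0165% of all genes. Gh was 1.59 log2 units higher in males than in females (SE 0.55, limma adjusted p = 0.288) and Pomc 0.66 higher (SE 0.27, adjusted p = 0.339), with 2 of the 7 genes and 2550 of all genes at an unadjusted p under 0.05. Male and female arrays did not separate for any of the 7, against 22.2% of all genes. Without the male TP array, Gh stood 0.15 and Pomc -0.05 log2 units from the females. Without the male vehicle array, so that the male TP array alone stood for males, the values were 3.04 (adjusted p = 0.0033) and 1.37 (adjusted p = 0.0145), and both genes passed. Over all alternatives the adjusted p ran up to 0.916 for Gh and 0.964 for Pomc.

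The TP effect in females minus that in males was -2.89 for Gh (SE 0.24, limma adjusted p = 0.0752) and -1.41 for Pomc (SE 0.14, adjusted p = 0.172). This fit assumes that the single male arrays vary like the female ones, and 0 of the 7 genes and 0.011% of all genes passed it, with 4 of the 7 and 804 of all genes at an unadjusted p under 0.05. The result for both genes depends on the setting. With an intensity trend in the variance the adjusted p was 1.14e-04 for Gh and 0.0068 for Pomc, and with each array centred on its median 0.0034 and 0.0414. In the fit over all single-gene probe sets, the 3 _x_at probe sets of Gh passed (adjusted p of 1.43e-04, 1.58e-04 and 1.86e-04) and 1460310_a_at did not (0.0554). With a female array left out the adjusted p of the gene-level fit was between 0.104 and 0.989 for Gh and between 0.371 and 1.00 for Pomc. All of these rest on 1 male TP array.

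The probe sets of a gene can be compared as repeated readings of the same RNA. Over the 6 arrays the 4 Gh probe sets had Pearson r between 0.990 and 0.999 in their 6 pairs, and the Pomc pair 0.971. Over the 5 arrays other than male TP the r lay between -0.52 and 0.33 for Gh and at -0.16 for Pomc. The likeness of the probe sets thus rests on the male TP array, and among the other arrays they did not rank the samples alike.

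The male TP array also sets which genes resemble Gh in pattern. Pomc entered this comparison through its level on that array, since its other 5 readings span 0.12, so its likeness to Gh restates what the levels show. Among 17 genes that were not dim and had an SD over the 6 arrays of at least 0.3 log2 units, Pomc had the highest r with Gh, 0.996 (Spearman 0.943) over 6 arrays. The next, Serf1, had 0.37, followed by H2-Ea at 0.29, Zap70 at 0.21 and Whrn at 0.15. Over the 5 arrays without male TP the order was another, with 0.76 for Whrn, 0.75 for H2-Ea, 0.70 for Zap70, 0.70 for Pomc and -0.86 for Serf1. For Pomc, Serf1 led with 0.42, and H2-Ea, 2610008E11Rik, Zap70 and Whrn followed between 0.07 and 0.21. For Prl the highest were Xist with 0.52, 2610008E11Rik with 0.40, Ap5z1 and 5530601H04Rik with 0.39 and Pomc with 0.37. With so few arrays these are descriptions of shared order and size.

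Other genes of the axis did not follow Gh and Pomc on the male TP array. The median male difference was 0.40 for the 7 hormone genes and -0.03 for all genes. Of 8 measured hypothalamic releasing and inhibiting factors, 4 were higher and 4 lower in TP males (median -0.02). The highest was Oxt, encoding oxytocin, at 8.42 in TP males and 8.06 in vehicle males (0.37), with 8.07 and 8.19 in TP females and 8.18 and 8.09 in vehicle females. Avp, encoding vasopressin, differed by 0.27. Ghrh, the releasing hormone for growth hormone, was the lowest at -0.15, and Sst, encoding somatostatin, which inhibits its release, stood at -0.14. Trh, the releasing hormone for thyrotropin, differed by 0.11.

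Of 9 pituitary receptors for these factors, 4 were higher and 5 lower in TP males (median -0.04). Ghrhr, the receptor through which Ghrh acts on somatotrophs, was the highest at 5.64 in TP males and 5.37 in vehicle males, and between 5.03 and 5.43 in females. Avpr1b, a vasopressin receptor of corticotrophs, was the lowest at -0.40, and Drd2, the dopamine receptor that restrains prolactin release, stood at -0.18. Of 13 measured pituitary transcription factors, 3 were higher and 10 lower (median -0.04). Tbx19, which drives Pomc in corticotrophs, was the highest at 0.17, although its other probe set gave -0.12. Hesx1, of the early pituitary primordium, was the lowest at -0.29. Lhx3 and Pitx1, of early pituitary development, differed by -0.01 and -0.10.

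Among 9 genes of prohormone processing and secretory granules, 2 were higher and 7 lower (median -0.03). Cpe, a carboxypeptidase that trims prohormones, was the highest at 13.63 in TP males and 13.22 in vehicle males, with 13.46 and 13.42 in TP females and 13.21 and 13.40 in vehicle females. Its second probe set differed by 0.62 in males. Pcsk1, the convertase that releases corticotropin from its precursor, was the lowest at -0.12.

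Receptors of the hormones and their targets numbered 12, of which 5 were higher and 7 lower (median -0.06). They ran from Fshr, the receptor of follicle-stimulating hormone, at -0.43 to Mc5r, a melanocortin receptor, at 0.33. Ghr, the growth hormone receptor, differed by 0.03. In 18 related hormone genes, nearly all of the prolactin family, male differences ran from -0.25 for Prl7b1 to 0.24 for Prl3a1 (median -0.03), and all 18 were dim. In each of these 6 lists 0 genes passed limma's threshold in any of the 4 tested comparisons.

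**Figure D3:**
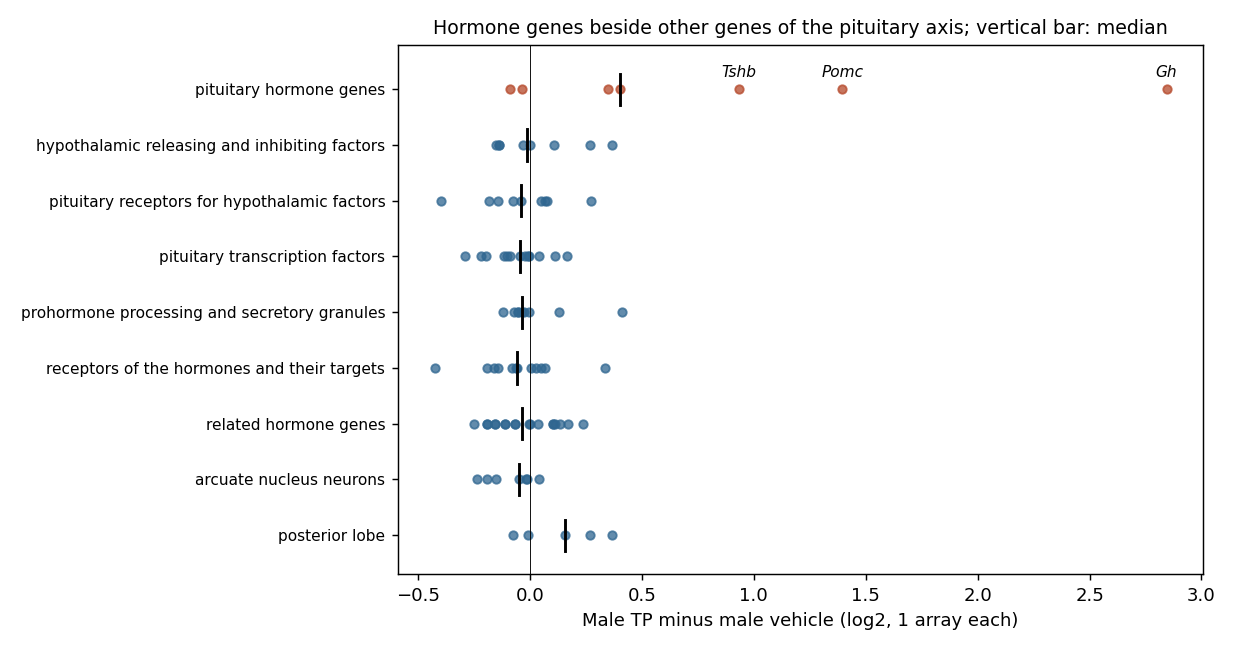
Male TP minus male vehicle difference (horizontal axis, log2, 1 array each) for each measured gene of 9 lists (rows), 1 point per gene, with the list median as a vertical bar. Gh, Pomc and Tshb lie at 2.84, 1.40 and 0.93, beyond all genes of the other 8 lists, whose highest value is 0.41.

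Markers of neighbouring tissues were measured beside the hormone genes, with Ghrh, Oxt, Avp, Nr5a1 and Lhx4 each in 2 of the lists. For the 7 measured genes listed for the arcuate nucleus, 1 was higher and 6 lower in TP males (median -0.05). The higher one, Nr5a1 at 0.04, is not particular to that nucleus and is also on the list of pituitary transcription factors. Agrp and Kiss1 of the arcuate list had no single-gene probe set. The mean level of the 7 genes was 6.31 on the male TP array, 6.40 on the male vehicle array and 6.31 to 6.36 on the female arrays. For the 5 posterior lobe and vasopressin or oxytocin neuron genes, 3 were higher and 2 lower (median 0.15), with a mean level of 7.16 on the male TP array, 7.02 on the male vehicle array and 7.03 to 7.07 on the female arrays. The male median was -0.11 for 6 pineal genes, -0.08 for 8 eye genes, -0.22 for 7 trigeminal ganglion genes and -0.26 for 9 bone and cartilage genes. In that last list Ibsp, a bone matrix protein gene, read 3.49 on the male TP array and 4.61 on the male vehicle array, the lowest male difference of all genes at -1.11. In females Ibsp read 6.19 and 6.04 with TP and 4.54 and 4.41 with vehicle, and it passed limma's test there (1.64, adjusted p = 0.0125) and for the female minus the male TP effect (2.75, adjusted p = 0.0102). Dmp1, another bone matrix protein gene, differed by -0.87 in males. The male median was 0.01 for 7 muscle genes, -0.12 for 7 skin genes, -0.11 for 5 blood genes and -0.00091 for 10 brain genes. Xist, too, read higher on the male TP array than on the male vehicle array. Unlike Gh and Pomc, it read highest on the female arrays. The part of any of these in the readings of Gh and Pomc was not tested.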

How the data were processed

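RNA of whole neonatal mouse brains was measured on 6 arrays with 45101 probe sets. The deposited values are log2 expression values that the authors made with RMA, per the submitters' processing notes (version not given in the sources used here). RMA draws low readings together, which can shrink small differences. No counts or detection calls were used, so the number of arrays limits precision.

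Probe sets were named through GEO's platform annotation. Of 34945 with 1 gene symbol, 11 named a hormone gene, and all 11 had gene identifiers matching RefSeq's. Array controls (64) and probe sets with several genes (932) were left out. Where a gene had several probe sets, the fits used the one whose mean over the 6 arrays was highest.

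Tests used limma (version 3.58.1, under R 4.3.3) with lmFit and eBayes and were two-sided. Their p-values were adjusted by Benjamini-Hochberg across the 18193 genes, or across all 34945 single-gene probe sets where a value is given for a single probe set. The fits were tested on simulated data with independent noise of the same size for every gene. No change was placed on the male TP array alone, so that run says nothing about results that rest on it. Male TP and vehicle, with 1 array each, were not tested. The members and lists were chosen with earlier results of these data known. The rule for named genes took the 7 hormone genes, allowed any gene of the lists, and took the 5 genes most correlated with Gh, Prl and Pomc. Those given from the lists were the highest and lowest male difference and a few of known role, picked with values seen. Alternatives are given below. Figures were drawn with Python 3.11.15 and matplotlib 3.10.9.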

Additional observations from a re-analysis of the deposited data

Results flagged for a closer look

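In males the TP effect had the opposite direction to the female effect for 5 named genes whose female groups did not overlap. Female groups did not overlap for 38.1% of all genes. The female effect minus the male effect was -0.67 for Prl, -0.44 for Avp and -0.49 for Mc5r, and limma's test of that difference did not pass for any of these 3 (adjusted p = 1.00 for each). It was 1.99 for Dmp1, which did not pass (limma adjusted p = 0.893), and 2.75 for Ibsp, which passed (limma adjusted p = 0.0102). The same difference passed limma's test for 3 Gh probe sets in the fit over all single-gene probe sets, at -5.30, -5.17 and -4.90 (adjusted p of 1.43e-04, 1.58e-04 and 1.86e-04), and for Xist at -5.00 (adjusted p = 1.71e-04). For all of these the male effect rests on 1 array per treatment.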

How the results depend on the processing

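Genes past limma's threshold in the female comparison numbered 2 with all single-gene probe sets, 3 with probe sets averaged per gene, 0 without dim genes and 15 with an intensity trend, against 5, and 0 to 0 when each array was left out. Over both sexes they numbered 1 without dim genes and 7 with the trend, against 0, and 0 to 5 with each array left out (5 without the male TP or the male vehicle array). Between the sexes they numbered 10 without dim genes and 24 with the trend, against 3, and 3 to 7 with each array left out. For the female minus the male TP effect they numbered 7 with all probe sets, 4 with median centring and 6 with the trend, against 2, and 1 to 1 with a female array left out. Hormone genes past the threshold numbered 0 under every alternative run for the female comparison and for both sexes. Between the sexes they were 0 to 2 with an array left out (Gh and Pomc without male vehicle), and otherwise 0. For the difference of TP effects they were 1 with all probe sets, the mean of probe sets or quantile normalization (Gh), 1 without dim genes (Pomc), and 2 with median centring or the trend, and 0 to 0 with a female array left out.

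Small differences changed sign. With the mean of probe sets the female difference was 0.055 for Gh and 0.043 for Pomc. Over both sexes Lhb stood at 0.0012 after quantile normalization and 0.0028 after median centring, and in vehicle arrays alone the male minus female difference was -0.046 for Pomc and -0.27 for Tshb. With an array left out, female differences ran from -0.24 to 0.14 for Gh, -0.42 to -0.12 for Prl, -0.076 to 0.043 for Pomc, -0.63 to 0.20 for Tshb, -0.36 to 0.30 for Cga, -0.17 to 0.20 for Lhb and -0.17 to 0.042 for Fshb. Over both sexes they ran from -0.048 to 1.30 for Gh, -0.27 to 0.10 for Prl, -0.017 to 0.62 for Pomc, -0.21 to 0.52 for Tshb, -0.057 to 0.32 for Cga and -0.11 to 0.10 for Lhb. Male minus female they ran from -0.43 to 0.24 for Prl, -0.046 to 1.37 for Pomc and -0.27 to 0.87 for Tshb, and for the difference of TP effects from -0.13 to 0.23 for Lhb and -0.086 to 0.13 for Fshb. With the mean of probe sets the male difference was 4.62 for Gh and 1.69 for Pomc. Leaving out dim genes gives no value for hormone genes other than Pomc. The replicate block on original and replica arrays, whose deviations correlated at 0.11 over genes, gave 5 genes past the threshold and 0 hormone genes. Without dim genes fewer genes were tested. The cause of the other shifts was not tested.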
